A study of Mus musculus with 4 samples.

Results

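The genes described here are 10 components of the Notch pathway in AT2 cells, the surfactant-producing progenitor cells of the lung alveolus. They are the receptors Notch1, Notch2, Notch3 and Notch4, the ligands Jag1 and Jag2, the DNA-binding factor Rbpj, and the targets Hes1, Hey1 and Nrarp. They were taken by gene symbol from the 40092 rows of a table of RNA-seq read counts, as a set chosen for their place in the pathway with earlier results of these data known. The table holds 2 control libraries (Ctrl, Alkbh5flox/+) and 2 knockout libraries (A5-CKO, Alkbh5flox/flox), 1 from each sample of sorted cells. Alkbh5 encodes an enzyme that removes the m6A methyl mark from RNA. All 4 samples carried Sftpc-CreERT2, a recombinase that tamoxifen switches on in cells using the surfactant promoter Sftpc, and Rosa26-mTmG, a reporter that turns recombined cells green. All mice received tamoxifen and then bleomycin, a drug that injures the alveolar epithelium, and green cells were sorted on day 14 after injury. The Ctrl mice were littermates that carried 1 floxed allele and the recombinase, so they are not wild type and may lack 1 copy of Alkbh5 in the sorted cells. Ages were not given in the sources used here. Green fluorescence marks descent from an Sftpc-expressing cell, so a sorted cell need not still have been an AT2 cell.

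In Notch signaling, a ligand on one cell binds a receptor on its neighbour, and proteases then free the receptor's intracellular domain. This domain enters the nucleus and joins Rbpj on DNA, where it turns on targets such as the repressors Hes1 and Hey1 and the feedback inhibitor Nrarp. In the lung, Notch signaling is known for directing airway progenitors between secretory and ciliated fates, and it also takes part in alveolar development and repair.

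The libraries held from 18144865 to 20811757 counts, and 3 counts, taken as the floor for detection, equalled 0.128 to 0.177 normalized counts (CPM, the count as a share of the TMM-scaled library). The genotypes were compared by the quasi-likelihood test of edgeR, and p-values were adjusted by the Benjamini-Hochberg method over the 16661 genes with enough counts. Nothing in the labels says whether the libraries of a group came from separate mice, so the p-values measure only the spread between these samples. That spread was wide: the biological coefficient of variation was 41.6%, and the closest pair of libraries crossed the genotypes (Ctrl 1 with A5-CKO 2). Alkbh5 had 81.7 and 152 CPM in Ctrl and 19.3 and 36.6 CPM in A5-CKO. Its difference was -2.06 on the log2 scale (SE 0.46, edgeR adjusted p = 0.528), and DESeq2 on the same genes gave an adjusted p of 0.0248. The surfactant genes Sftpa1, Sftpc and Sftpd ranked 2, 3 and 7 among all genes by mean CPM and are defining genes of the labelled cell type. The summed level of 10 AT2 markers was 56700 and 82200 CPM in Ctrl and 42200 and 34900 CPM in A5-CKO, with 7 of the 10 below both Ctrl libraries in both A5-CKO libraries (23.5% of all genes tested). In these bulk samples, fewer cells of a type and less RNA per cell cannot be told apart.

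Of the 10 genes, 9 had enough counts to be tested, and Notch4 was listed at 0 in every library. Transcripts of 2 receptors (Notch1 and Notch2), Jag1, Rbpj and Hes1 were at moderate levels in both genotypes, while Notch3, Jag2, Nrarp and Hey1 were low. No gene of the 9 differed between A5-CKO and Ctrl beyond the spread of the libraries: 0 had an adjusted p under 0.05 (0% of all genes tested) and 0 an unadjusted p under 0.05 (9.18% of all genes tested). The genotypes did not overlap for 1 member that was lower in A5-CKO (23.5% of all genes tested) and 1 that was higher (20.3%). The largest difference in size was that of Jag2, which was lower in A5-CKO with a difference of -0.63 on the log2 scale (standard error, SE, 0.37).

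**Figure D1:**
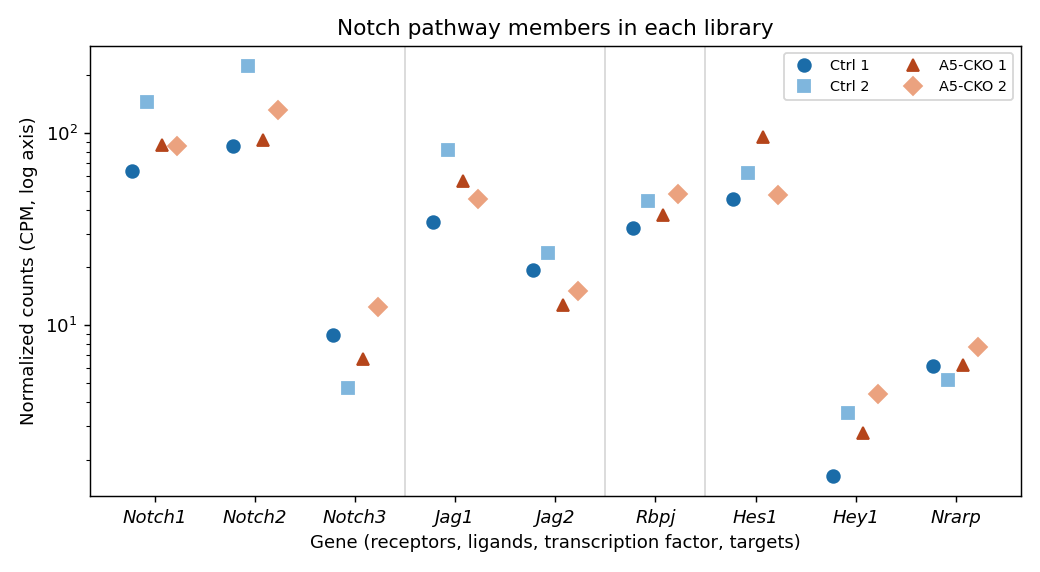
Normalized counts (CPM, log axis) of the 9 detected Notch genes, with 1 point for each of the 2 Ctrl and 2 A5-CKO libraries. The points of both genotypes overlap for all genes but Jag2, lower in both A5-CKO libraries, and Nrarp, where A5-CKO 1 (6.20 CPM) lay just above Ctrl 1 (6.15 CPM).

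Levels of different genes were compared per kilobase of the longest coding transcript, as the mean over all 4 libraries. Hes1 stood first at 42.6 ± 15.7 CPM per kb (SD, n = 4), and its lowest library (31.0) was above the highest library of any other member. That level placed Hes1 at percentile 86.8 of 13597 protein-coding genes tested. Notch2 followed at 12.6 ± 5.97, trailed by Notch1 with a range of 6.69 to 15.2, Jag1 at 9.69 ± 3.59 and Rbpj at 7.40 ± 1.31 CPM per kb, at percentiles between 49 and 62.2. The ranges of these neighbours overlapped, so their order is not beyond the spread between libraries. Jag2 came next at 3.48 ± 0.954 CPM per kb, and its highest library (4.66) lay below the lowest of Rbpj (5.88). Jag2 and Nrarp (2.45 ± 0.394) overlapped, and so did Hey1 (1.27 ± 0.479) and Notch3 (1.02 ± 0.415), whose libraries all lay below the lowest Nrarp library (2.03). Notch3 and Hey1 were at percentiles 16.3 and 18.7.

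Among the receptors, Notch2 is a large single-pass receptor on chromosome 3 (98013538 to 98150367, GRCm38.p6). It had 85.2 CPM (Ctrl 1) and 222 CPM (Ctrl 2), against 92.1 CPM (A5-CKO 1) and 131 CPM (A5-CKO 2). Both A5-CKO libraries lay between the Ctrl libraries, which differed from each other by 2.60-fold. The mean was 153 ± 96.4 CPM in Ctrl and 112 ± 27.7 CPM in A5-CKO (SD, n = 2). On the log2 scale, A5-CKO minus Ctrl was -0.46 (SE 0.48, edgeR adjusted p = 0.743). Ctrl 2 set its direction: without Ctrl 2 the log2 fold change was 0.35, and without Ctrl 1 it was -0.92, where edgeR across all genes gave an unadjusted p of 0.0429. In every fit that leaves out a library, 1 arm holds a single sample, which is assumed to vary like the remaining pair, so such p-values rest on the spread of that pair alone.

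Notch1 (chromosome 2, 26457902 to 26503822) is the founding receptor of the mammalian family. Its level was 63.5 CPM (Ctrl 1) and 144 CPM (Ctrl 2), against 86.2 CPM (A5-CKO 1) and 85.7 CPM (A5-CKO 2). The A5-CKO libraries were almost equal and again lay between the Ctrl libraries, which were 2.27-fold apart. The log2 fold change was -0.27 (SE 0.42, edgeR adjusted p = 0.834), and it was 0.40 without Ctrl 2. A long non-coding RNA, 0610009E02Rik, overlaps Notch1. The strand setting of the counting was not given, so reads of both cannot be told apart there. Among the other members, the annotation lists overlaps for Notch2 (Gm40103), Notch3 (Gm38585 and Gm41568), Jag2 (Mir6941) and Hey1 (LOC115489673). Shared reads are uncertain for these members too.

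Notch1 and Notch2 have transcripts of 9.49 and 10.5 kb, and transcript length moved with the Ctrl libraries. Over 769 protein-coding genes of 8 kb or more, the median level in Ctrl 2 was 1.30-fold that in Ctrl 1, and over 3378 genes under 2 kb it was 0.795-fold. The folds of Notch1 and Notch2 between the Ctrl libraries were larger than that median, and the part of length in them was not tested. Notch3, with 8.02 kb, went the other way, at 0.531-fold. Between the genotypes, the median log2 fold change over the genes of 8 kb or more was 0.435. Notch1 (-0.27) and Notch2 (-0.46) lay below that median, and Notch3 (0.50) lay near it. The part of length in these differences was not tested.

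Notch3 (chromosome 17, 32120820 to 32166896) is known above all from the smooth muscle cells and pericytes of blood vessels. It had 8.87 CPM (Ctrl 1) and 4.71 CPM (Ctrl 2), against 6.70 CPM (A5-CKO 1) and 12.5 CPM (A5-CKO 2), from 81 to 292 reads. Genotypes overlapped, and the log2 fold change was 0.50 (SE 0.56, edgeR adjusted p = 0.762). Without A5-CKO 2 it was -0.05. The summed level of 8 markers of mural cells (smooth muscle and pericytes) was 83.4 CPM (Ctrl 1) and 25.5 CPM (Ctrl 2), against 19.7 CPM (A5-CKO 1) and 180 CPM (A5-CKO 2). The same 2 libraries, A5-CKO 2 and then Ctrl 1, were thus highest for Notch3 and for this sum. All 8 mural markers had reads, among them the muscle genes Acta2 (2.67 to 80.2 CPM) and Des (1.77 to 30.3 CPM). The summed level of 7 fibroblast markers was also highest in these 2 libraries, at 395 CPM (Ctrl 1) and 1010 CPM (A5-CKO 2), with 149 CPM for Ctrl 2 and 94.1 CPM for A5-CKO 1. The part of such cells in the Notch3 reads was not tested.

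Notch4, a receptor best known from endothelium, was listed at 0 in all 4 libraries, and this 0 cannot be read as absence of expression. The gene lies in the MHC region of chromosome 17 (34564286 to 34588543, GRCm38.p6). All 10 of its nearest protein-coding neighbours had at most 10 counts in any library. It stood in an unbroken run of 18 such genes, from H2-Eb2 to Tnxb. Of 80 protein-coding genes from Ring1 to Ddx39b, 62 (77.5%) had at most 10 counts in every library, against 28.9% of all protein-coding genes in the table. Broadly used genes of that stretch were among them: Brd2, Csnk2b, Bag6, Rnf5, Atf6b and Prrc2a, chosen as examples after their values were seen, were at 0 in every library. The cause of the low counts along this stretch was not tested. Other endothelial genes did have reads: the junction genes Pecam1 and Cdh5 had 29.7 to 50.2 CPM and 26.4 to 56.0 CPM over the libraries, though Cldn5 was at 0.

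**Figure D2:**
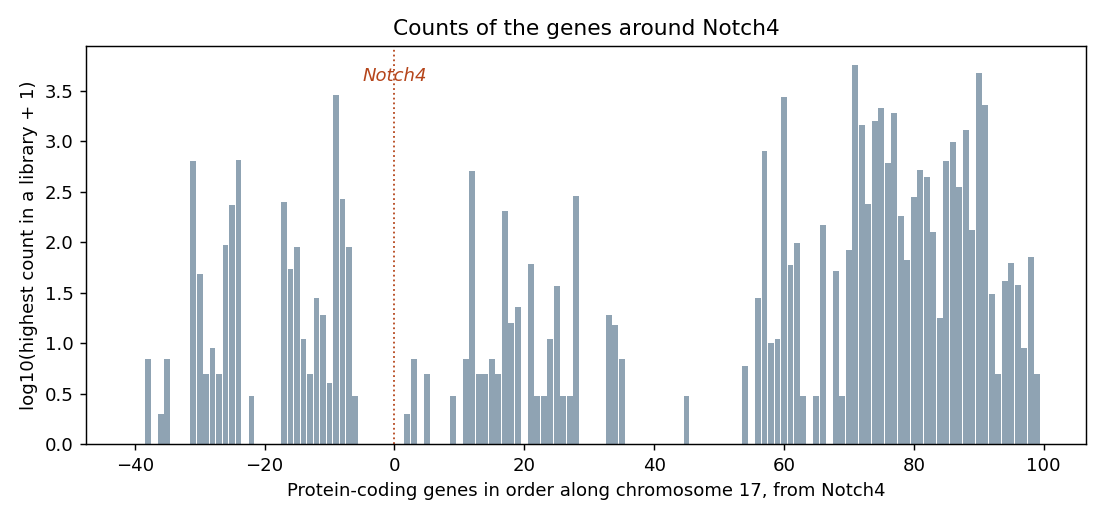
Highest count in any of the 4 libraries, as log10(count + 1), for protein-coding genes in their order along chromosome 17, with Notch4 at 0 on the horizontal axis. Notch4 lies in an unbroken run of 18 genes, itself included, with at most 10 counts, and genes with far higher counts stand on both sides.

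The makeup of the receptor pool does not depend on the scaling of the libraries, since it compares genes within 1 library. Notch2 contributed 54.1% of the reads of Notch1, Notch2 and Notch3 in Ctrl 1 (95% exact binomial interval 52.2 to 56.0%), 59.8% in Ctrl 2 (58.6 to 61.0%), 49.8% in A5-CKO 1 (48.2 to 51.3%) and 57.2% in A5-CKO 2 (55.9 to 58.5%). These intervals cover counting error only. Notch1 contributed 40.3%, 39.0%, 46.6% and 37.3% of the reads in the same order, and Notch3 5.63%, 1.27%, 3.62% and 5.44%. Per kilobase, Notch2 held 51.0% and 57.2% of the pool in Ctrl and 46.9% and 54.1% in A5-CKO, so the genotypes overlapped. Notch2 exceeded Notch1 per kilobase in both Ctrl libraries and A5-CKO 2, while in A5-CKO 1 Notch1 held 48.6%, an exception that turned round with exon-union lengths (Notch2 55.4%, Notch1 39.3%). These shares are of the 3 receptors with reads and leave Notch4 out. With those lengths, the union of all annotated exons and an alternative chosen after seeing the data, the mean share of Notch2 was 60.4% rather than 52.3%.

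**Figure D3:**
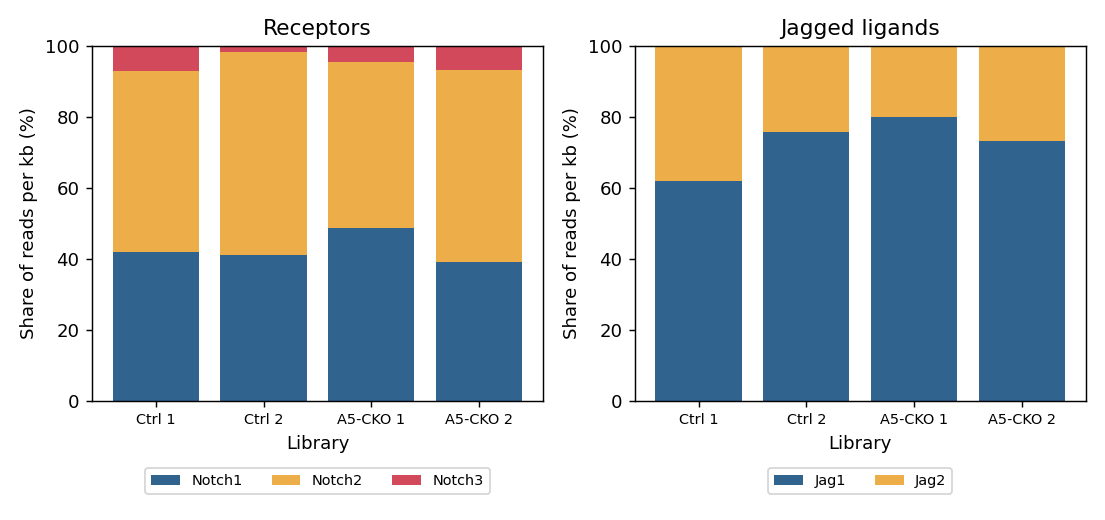
Share of each receptor among Notch1, Notch2 and Notch3 (left) and of each ligand among Jag1 and Jag2 (right), in percent of reads per kb, with 1 stacked bar for each library. Notch2 and Notch1 fill over 90% of the receptor bar in each library, and Jag1 fills from 61.8% (Ctrl 1) to 80.0% (A5-CKO 1) of the ligand bar.

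Of the ligands, Jag2 (chromosome 12, 112907803 to 112929812) showed the clearest separation of the genotypes. It had 19.5 CPM (Ctrl 1) and 23.8 CPM (Ctrl 2), against 12.8 CPM (A5-CKO 1) and 15.1 CPM (A5-CKO 2), from 282 to 409 reads. Neither A5-CKO library reached the lower Ctrl library, and the mean was 21.6 ± 3.07 CPM in Ctrl and 13.9 ± 1.67 CPM in A5-CKO (SD, n = 2). The difference did not pass the test (log2 fold change -0.63, SE 0.37, edgeR adjusted p = 0.578), and its unadjusted p in that model was 0.132. Of all genes tested, 23.5% lay below both Ctrl libraries in the same way, so the separation of 1 member in 9 was no more than the background. The log2 fold change of Jag2 was negative in every alternative run, from -0.79 to -0.31, and the smallest difference came with total counts as the only scaling.

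Jag1 (chromosome 2, 137081451 to 137116520), a ligand widely used in epithelia and vessels, had 34.5 CPM (Ctrl 1) and 81.6 CPM (Ctrl 2), against 56.0 CPM (A5-CKO 1) and 45.4 CPM (A5-CKO 2). The Ctrl libraries bracketed the A5-CKO libraries, as for Notch1 and Notch2, with 2.36-fold between them. Between genotypes the log2 fold change was -0.20 (SE 0.44, edgeR adjusted p = 0.890) and 0.51 without Ctrl 2. Jag1 took 64.0% of the reads of both ligands in Ctrl 1 (95% exact binomial interval 60.8 to 67.1%), 77.4% in Ctrl 2 (75.4 to 79.3%), 81.4% in A5-CKO 1 (79.4 to 83.4%) and 75.0% in A5-CKO 2 (72.7 to 77.2%). Jag1 was the more abundant Jagged ligand per kilobase in all 4 libraries, and its share overlapped between the genotypes.

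Rbpj (chromosome 5, 53555779 to 53657445) encodes the factor through which all Notch receptors act on DNA, and which represses targets when no receptor domain is bound. It varied least among the 5 most abundant members: 32.2 CPM (Ctrl 1) and 44.2 CPM (Ctrl 2), against 37.4 CPM (A5-CKO 1) and 48.4 CPM (A5-CKO 2). The groups overlapped, and the log2 fold change was 0.17 (SE 0.33, edgeR adjusted p = 0.875). It was -0.06 without A5-CKO 2 and -0.21 with a correction for transcript length and GC content, which was chosen after seeing the data. The annotation also lists pseudogenes of Rbpj. The counting as described kept only uniquely mapped reads, so reads that fit both equally would be left out.

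Promoter sequences of Rbpj and Nrarp are shown because they hold a match to the core bound by Rbpj or to the E-box bound by Hes and Hey proteins. Upstream windows of 250 bases before the start (RefSeq, GRCm38.p6) were at hand for 8 of the 10 genes, in 9 windows, and not for Hes1 and Hey1. The Rbpj core TGGGAA, read on both strands (reverse TTCCCA), occurs in 21.6% of all 32851 windows, and the E-box CACGTG, its own reverse, in 6.0%. Capitals mark the match in each sequence, read 5′ to 3′ on the plus strand. The Rbpj sequence is chr5:53590096-53590213, the part of its window before the first annotated exon there, and it lies within the gene because other transcripts start further upstream. The Nrarp sequence is chr2:25180508-25180757, the whole window.
Rbpj: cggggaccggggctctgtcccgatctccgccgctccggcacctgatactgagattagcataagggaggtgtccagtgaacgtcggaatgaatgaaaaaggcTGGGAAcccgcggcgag
Nrarp: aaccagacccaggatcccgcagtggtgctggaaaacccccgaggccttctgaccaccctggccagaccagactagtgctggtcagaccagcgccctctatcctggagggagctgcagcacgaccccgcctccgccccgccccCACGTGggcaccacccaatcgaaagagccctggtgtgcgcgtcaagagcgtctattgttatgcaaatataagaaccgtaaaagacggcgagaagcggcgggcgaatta
The core in Rbpj lies 149 bases before that start site, and a second one lies 65 bases before it. The E-box of Nrarp lies 108 bases before its start. The windows of Notch1, Notch2, Notch3, Notch4, Jag1 and Jag2 hold neither string. A match is a description of letters, and binding was not measured.

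Among the targets, Hes1 (chromosome 16, 30065357 to 30067796), a repressor that responds rapidly to Notch and also to other signals, was the highest. Its level was 45.5 CPM (Ctrl 1) and 61.9 CPM (Ctrl 2), against 95.1 CPM (A5-CKO 1) and 47.4 CPM (A5-CKO 2). A5-CKO 1 was 2.01-fold above A5-CKO 2, which lay between the Ctrl libraries. The mean was 53.7 ± 11.6 CPM in Ctrl and 71.2 ± 33.8 CPM in A5-CKO (SD, n = 2). A5-CKO minus Ctrl was 0.41 on the log2 scale (SE 0.40, edgeR adjusted p = 0.725), and it was -0.19 without A5-CKO 1. The ratio of Hes1 to Rbpj reads was 1.41 and 1.40 in Ctrl, but 2.54 (A5-CKO 1) and 0.978 (A5-CKO 2) in the knockout, so the A5-CKO libraries lay on either side of the nearly equal Ctrl libraries.

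Nrarp (chromosome 2, 25180758 to 25183339), which binds the receptor domain and damps the signal, had 6.15 CPM (Ctrl 1) and 5.24 CPM (Ctrl 2), against 6.20 CPM (A5-CKO 1) and 7.69 CPM (A5-CKO 2). It was the 1 member above both Ctrl libraries in both A5-CKO libraries, as were 20.3% of all genes tested. The gap between A5-CKO 1 and Ctrl 1 was small beside the spread within a group, and the log2 fold change was 0.29 (SE 0.49, edgeR adjusted p = 0.854). Hey1 (chromosome 3, 8663359 to 8667038), a repressor related to Hes1 and prominent in vessels, had 1.66 CPM (Ctrl 1) and 3.49 CPM (Ctrl 2), against 2.76 CPM (A5-CKO 1) and 4.403 CPM (A5-CKO 2), from 28 to 103 reads. Its groups overlapped (log2 fold change 0.48, SE 0.65, edgeR adjusted p = 0.814), and the log2 fold change moved from 0.07 without A5-CKO 2 to 1.07 without Ctrl 2. It was 0.10 without Ctrl 1. The summed level of 10 endothelial markers was 194 CPM (Ctrl 1) and 263 CPM (Ctrl 2), against 134 CPM (A5-CKO 1) and 260 CPM (A5-CKO 2). Hey1 and this sum were both higher in Ctrl 2 and A5-CKO 2 than in the remaining libraries, and the part of endothelial cells in the Hey1 reads was not tested.

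DESeq2, like edgeR, gave 0 of the 9 members an unadjusted p under 0.05. Over the members the signs were divided, with 5 positive and 4 negative log2 fold changes and a median of 0.17, beside a median of -0.02 and 49.1% positive over all genes. Both Jagged ligands, Notch1 and Notch2 were on the negative side, and Notch3, Rbpj and all 3 targets on the positive side. This division turned on single libraries and on the scaling: it was 8 to 1 without Ctrl 2, 3 to 6 without A5-CKO 2, and 7 to 2 with total counts only, where Notch1 (0.066) and Jag1 (0.14) turned positive and which moved the median of all genes to 0.30. Jag2, Hey1 and Nrarp kept their sign in each fit that left out 1 library, and the other 6 members did not. With 2 libraries in a group, the smallest two-sided p that a permutation test can give is 0.333.

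**Figure D4:**
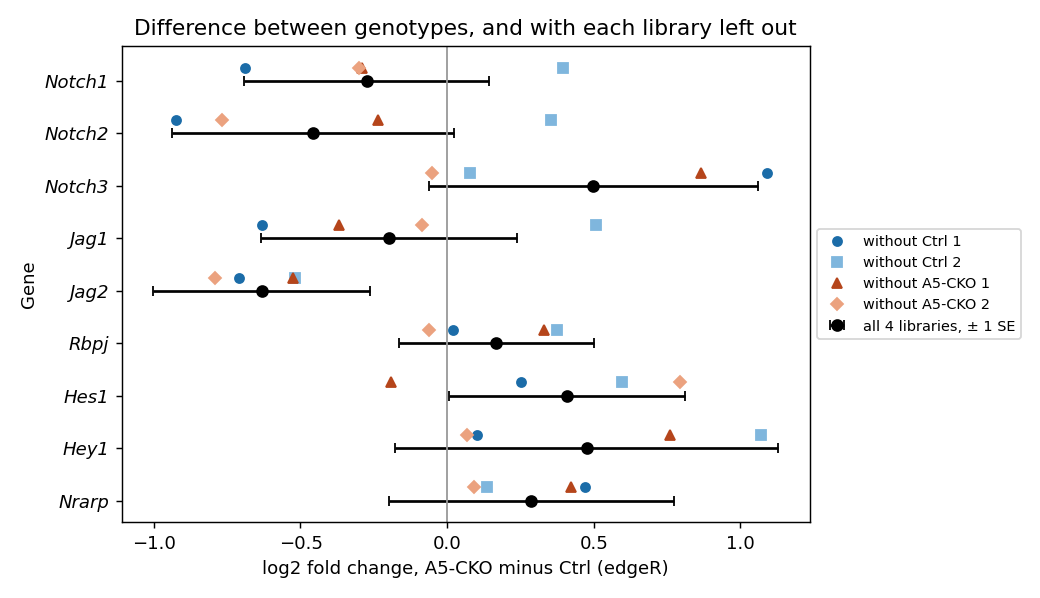
Log2 fold change of each Notch gene, A5-CKO minus Ctrl, from edgeR with all 4 libraries (black, ± 1 standard error) and after leaving out 1 library at a time (coloured points, named by the library left out). The coloured points of Notch1, Notch2, Notch3, Jag1, Rbpj and Hes1 fall on both sides of 0.

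The rest of the pathway was read from 6 lists of 58 genes, of which 51 had enough counts. In these lists 3 genes had an unadjusted p under 0.05 (5.88% of the 51, against 9.18% of all genes), all 3 lower in A5-CKO, and 0 had an adjusted p under 0.05. Log2 fold changes were positive for 20 and negative for 31, with a median of -0.14. The A5-CKO pair lay wholly above the Ctrl pair for 5 of the genes and wholly below it for 12, where 20.3% and 23.5% of all genes tested did so.

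The proteases that release the receptor domain held 1 of these 3 genes. Psenen encodes the smallest subunit of gamma-secretase and was the most abundant protease gene per kilobase (131 CPM per kb). Its level was 141 CPM (Ctrl 1) and 99.3 CPM (Ctrl 2), against 67.8 CPM (A5-CKO 1) and 62.0 CPM (A5-CKO 2), so the groups did not overlap. Its log2 fold change was -0.89 (SE 0.31, edgeR adjusted p = 0.528), with an unadjusted p of 0.0244 in that model. All 9 protease genes were tested, of which 7 were negative and 2 positive, 3 below both Ctrl libraries and 2 above (23.5% and 20.3% of all genes tested), with a median log2 fold change of -0.34. The gene U2af1l4 overlaps Psenen in the annotation, and the strand setting was not given, so shared reads are uncertain. Psenen has a transcript of 0.71 kb, and genes under 2 kb had a median difference of -0.38 on the log2 scale. With the correction for length and GC content its log2 fold change was -0.45 (unadjusted p 0.108 in that edgeR model), and with total counts only -0.58 (unadjusted p 0.113 in edgeR). Without Ctrl 1 it was -0.56, and over the edgeR models that left out 1 library its unadjusted p ranged from 0.0082 to 0.134.

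Ligand endocytosis and receptor turnover were read from 13 genes, with 6 positive and 7 negative and a median log2 fold change of -0.0028. Mib2, a ubiquitin ligase that acts on ligands, had 58.4 CPM (Ctrl 1) and 54.0 CPM (Ctrl 2), against 38.9 CPM (A5-CKO 1) and 20.3 CPM (A5-CKO 2). Its log2 fold change was -0.93 (SE 0.39, edgeR adjusted p = 0.528), with an unadjusted p of 0.0485, which was 0.117 with the correction for length and GC content and 0.157 with total counts only. Over the edgeR models that left out 1 library the lowest p was 0.0205 (A5-CKO 1 left out) and the highest 0.252 (A5-CKO 2 left out), each resting on the spread of the group left with 2 libraries. The gene Mmp23 overlaps Mib2 in the annotation, so shared reads are uncertain. Dtx3, a Deltex-type ligase and the most abundant of this list per kilobase, had 54.1 and 52.8 CPM in Ctrl, against 93.6 CPM (A5-CKO 1) and 42.2 CPM (A5-CKO 2). Like Hes1, it was high in A5-CKO 1 alone, and its log2 fold change of 0.34 was -0.35 without that library. The gene F420014N23Rik overlaps Dtx3 in the annotation, so shared reads are uncertain there as well.

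The list of other HES and HEY genes held 10 genes, and it also included Bhlhe40 and Bhlhe41, which do not carry those names. Of the 10, 6 were tested, with 1 positive and 5 negative, and Bhlhe40 and Bhlhe41 were among the negative. Hes2, a relative of Hes1, had 7.45 CPM (Ctrl 1) and 32.1 CPM (Ctrl 2), against 5.30 CPM (A5-CKO 1) and 1.41 CPM (A5-CKO 2), from 33 to 552 reads. The groups did not overlap, but Ctrl 2 stood well above the other libraries. The log2 fold change was -2.56 (SE 0.88, edgeR adjusted p = 0.528), with an unadjusted p of 0.0236, and without Ctrl 2 it was -1.21, where edgeR across all genes gave an unadjusted p of 0.239. Bhlhe40, a stress- and clock-related repressor and the most abundant of the list, had a log2 fold change of -0.29 and overlapped between the genotypes. The gene 0610040F04Rik overlaps Bhlhe40 in the annotation, so shared reads are uncertain. Hes5, a classical Notch target in neural tissue, had at most 2 reads in a library, and Hes3, Hey2 and Helt were also too low to test.

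Among 15 co-activators and co-repressors, 0 had an unadjusted p under 0.05, and the median log2 fold change was 0.01. Rbpjl, a paralog of Rbpj that is known from the pancreas and does not take up the Notch domain, was the most abundant of them. It had 192 CPM (Ctrl 1) and 282 CPM (Ctrl 2), against 344 CPM (A5-CKO 1) and 108 CPM (A5-CKO 2). Per kilobase it exceeded Rbpj in every library, by 13.3-fold and 14.2-fold in Ctrl, against 20.5-fold (A5-CKO 1) and 4.97-fold (A5-CKO 2). The genotypes overlapped, since the A5-CKO libraries held both the highest and the lowest value (log2 fold change -0.07, SE 0.55). The gene Matn4 overlaps Rbpjl in the annotation, so shared reads are uncertain.

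The other ligands were scarce, with 3 of 6 tested. Dll1, the most abundant of them, had 5.44 and 3.32 CPM in Ctrl and 5.25 and 7.35 CPM in A5-CKO (log2 fold change 0.53, SE 0.55), and per kilobase its mean of 1.49 CPM lay below those of Jag1 and Jag2. Dlk1 was at 0 in all libraries, and Dll3 and Dner were too low to test. Of 5 glycosylation genes, which tune how receptors answer each ligand, 1 was positive and 4 were negative. Rfng, a Fringe glycosyltransferase, had 45.0 and 52.4 CPM in Ctrl and 33.2 and 27.0 CPM in A5-CKO. These groups did not overlap, but the difference did not pass the test (log2 fold change -0.69, SE 0.31, edgeR adjusted p = 0.528).

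**Figure D5:**
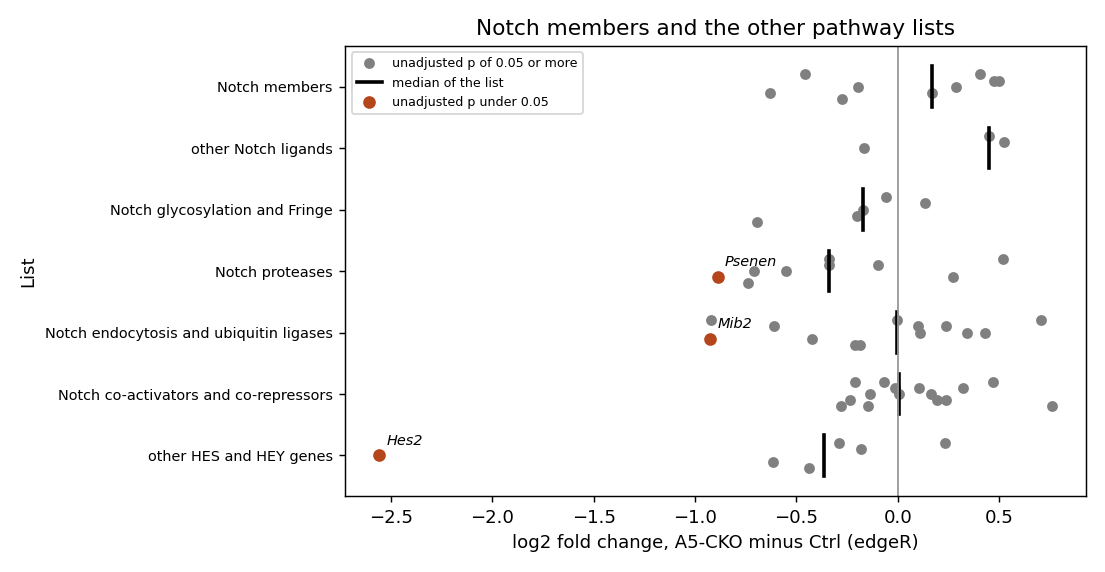
Log2 fold change, A5-CKO minus Ctrl, of each tested gene of the Notch members and of the 6 other pathway lists, with black bars at the list medians. The 3 genes with an unadjusted p under 0.05 in edgeR (Psenen, Mib2 and Hes2, in colour) all lie below 0, and the 9 members spread between -0.63 and 0.50.

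Leukocyte markers summed to 570 CPM (Ctrl 1) and 158 CPM (Ctrl 2), against 190 CPM (A5-CKO 1) and 768 CPM (A5-CKO 2), an order shared with Notch3. Club cell markers, of airway cells in which Notch signaling is active, summed to 2880 and 2750 CPM in Ctrl and 1990 and 1350 CPM in A5-CKO. Most of that sum was Scgb1a1 (1012 to 2262 CPM). Of the 6 club markers, 3 lay below both Ctrl libraries in both A5-CKO libraries (23.5% of all genes tested). In the other direction, 1 lay above both (20.3%), Muc5b, with 10.5 and 13.8 CPM in Ctrl and 27.0 and 26.3 CPM in A5-CKO. Ciliated cell markers summed to between 489 and 674 CPM, most of it Tubb4b, a tubulin that other cells also use (413 to 543 CPM). Of the 6 ciliated markers, 3 lay below both Ctrl libraries in both A5-CKO libraries (23.5% of all genes tested), and 0 lay above both (20.3%). Among those 3 was Foxj1, the defining factor of ciliated cells, with 21.6 and 17.9 CPM in Ctrl and 4.80 and 9.02 CPM in A5-CKO. Tppp3 overlapped, with 108 and 104 CPM in Ctrl, against 119 CPM (A5-CKO 1) and 35.8 CPM (A5-CKO 2). Markers of transitional cells, an intermediate between AT2 and AT1 cells, summed to 3720 CPM (Ctrl 1) and 1640 CPM (Ctrl 2), against 2350 CPM (A5-CKO 1) and 3950 CPM (A5-CKO 2). This order was also that of Notch3. AT1 markers summed to between 1250 and 1500 CPM, a sum of which Aqp5 made up much (478 to 981 CPM). Ager (2 to 6 counts) and Pdpn (0 to 17 counts) were too low to test. Ager lies in the low-count stretch around Notch4, so its counts cannot be read as low expression. Of the 6 AT1 markers tested, 5 had a positive log2 fold change, and the median of the list was 0.69. In both A5-CKO libraries, 4 lay above both Ctrl libraries (20.3% of all genes tested). In the other direction, 1 lay below both (23.5%), Aqp5, with 981 and 951 CPM in Ctrl and 478 and 636 CPM in A5-CKO. Of these 6 markers, 0 had an unadjusted p under 0.05 in edgeR. Notch1, Notch2 and Jag1 were highest in Ctrl 2, the library with the lowest sum of transitional markers and the highest sum of AT2 markers. The part of cell makeup in the levels of the Notch genes was not tested.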

How the data were processed

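Total RNA of sorted cells was made into libraries with a SMARTER mRNA-Seq kit. The authors trimmed reads with Trim Galore 0.6.10, removed ribosomal RNA reads, aligned with HISAT2 2.2.1 to mm10.p6, removed duplicates with sambamba, and deposited raw counts per gene from featureCounts 2.0.3 on an NCBI annotation. The counting, which kept only uniquely mapped reads, is described in the paper's methods under MeRIP-seq. It was taken here to apply, and its strand setting is not given. From these deposited counts, edgeR 4.0.16 (R 4.3.3) was run with TMM factors, filterByExpr and its quasi-likelihood test on all 4 libraries, without covariates. Standard errors (SE) came from each log2 fold change and its F statistic, as the quotient of the former and the root of the latter. The genes and lists were chosen with earlier results of these data known. Genes of the other pathway lists were named if their unadjusted p was under 0.05 and the groups did not overlap, or if they were the most abundant per kb of their list. Transcript lengths are from GENCODE M21. Alternatives were other scaling factors, DESeq2 1.42.0, limma 3.58.1 (voom), other filters, a robust fit, a replicate block, each library left out, and 2 added after seeing the data: a length and GC correction (splines with 4 degrees of freedom per library) and exon-union lengths. In simulated counts at the common dispersion of these libraries, edgeR recovered 108 of 200 genes changed by 4-fold or more, among 16239. Changes as small as those of the members were not simulated.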

Additional observations from a re-analysis of the deposited data

How the results depend on the processing

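No member had an adjusted p under 0.05 in any alternative, with 0.506 (Hes1) as the smallest. DESeq2 called 55 genes on the genes tested by edgeR and 57 with default filtering, against 0 in edgeR, none of them a member, and it gave Alkbh5 log2 fold changes of -2.01 and -2.02 with adjusted p of 0.0248 and 0.0254. The members' median log2 fold change of 0.17 was 0.50 with total counts only (all genes 0.30) and -0.21 with the length and GC correction. Total counts only also turned Notch1 to 0.066, Jag1 to 0.14, Rbpjl to 0.25 and Bhlhe40 to 0.037, upper-quartile factors turned Rbpjl to 0.024, and the length and GC correction turned Rbpj to -0.21 and Rbpjl to 0.26. Exon-union lengths gave Notch2 60.4% of the receptor pool. With each library left out, members at an unadjusted p under 0.05 numbered 0 to 1 and the members' median ranged from -0.19 to 0.38. The log2 fold changes ranged from -0.69 to 0.40 for Notch1, -0.92 to 0.35 for Notch2, -0.050 to 1.09 for Notch3, -0.63 to 0.51 for Jag1, -0.19 to 0.79 for Hes1, -0.062 to 0.38 for Rbpj, -0.35 to 0.78 for Dtx3 and -1.15 to 0.51 for Rbpjl. Of 255 values of single genes other than Alkbh5 under an alternative, 16 changed sign and 239 kept their sign and side of the threshold. The causes were not tested.

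The deviations of same-numbered libraries had a correlation of -0.36, so differences shared by both genotypes ran against the replicate numbers. Whether these numbers pair the samples cannot be decided from that value, since any difference between libraries that many genes share can set it. The labels do not say whether the samples were paired. With the replicate block, 754 genes had an unadjusted p under 0.05 in place of 1530, 0 had an adjusted p under 0.05, 0 members and 2 other pathway genes had an unadjusted p under 0.05, the members' median was 0.17 and the log2 fold change of Alkbh5 was -2.07.

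The spread between libraries limits these comparisons, and depth was not varied. Members with reads had from 28 (Hey1) to 3807 (Notch2) reads in a library.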
